A study of Arabidopsis thaliana with 27 samples.

Results

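A set of 93 of the 22746 non-control probe sets of the ATH1-type array gave a lower signal in rosettes of 3 Arabidopsis genotypes when plants raised at high CO2 spent 8 h in ambient air than when they stayed at high CO2. The members were chosen on group means of log2 signal. The ambient minus high CO2 difference at 8 h, called the step below, had to be -1 or lower in WT, in cat2-2 (cat2 below) and in GO5, which is at least a 2-fold lower signal. The differences cat2-2 minus WT and GO5 minus WT at ambient CO2 had also to lie within 1 of 0. These conditions were met by 95 probe sets, or 0.418% of those on the array. EXPA8 and IAA29 were left out by name, and EXLA1, EXO and ARL, also named for leaving out, did not meet the conditions. The 8 h signals therefore chose the members, and values at 8 h are given as a description. Limma calls on the step are counted below, but the rule used those contrasts and nothing is read from the counts. Of the 93, 37 were paired with 1 gene and can be named, 2 were paired with several genes and 54 had no paired gene here. The unpaired share was 58.1% among the members against 38.4% of all probe sets.

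The 27 arrays held 9 groups of 3 biological replicates, each replicate being RNA from 2 whole rosettes of plants 3 weeks old, grown in soil at 3000 ppm CO2 with 16 h of light and 8 h of dark. WT was Col-0. The cat2-2 line is an insertion mutant whose catalase activity the labels put at 10 to 15% of WT, and GO5 is a line that expresses glycolate oxidase in its chloroplasts. Each genotype was taken at 0 h, after 8 h more at 3000 ppm CO2 (high CO2) and after 8 h at 380 ppm CO2 (ambient CO2), so all groups share growth at high CO2. The labels name 1 line of each kind, so genotype and line cannot be told apart. The genes for catalase and glycolate oxidase were not among the paired ones, and the genotypes were not checked on them here.

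In leaves, Rubisco takes up oxygen in place of CO2 when CO2 is low, and the glycolate that follows is oxidised by glycolate oxidase in peroxisomes, a step of photorespiration that releases hydrogen peroxide. Catalase removes that peroxide, and high CO2 suppresses the pathway. A cat2 mutant thus accumulates photorespiratory hydrogen peroxide in ambient air, while a GO5 plant makes it in the chloroplast. The members described here had a lower signal at ambient CO2 in WT, which has neither alteration, and in both lines, by amounts that could differ between genotypes.

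Array medians over all probe sets lay between 5.28 and 5.51 log2 units. The WT ambient group had the widest spread between replicates (a median SD of 0.24 over the array, where the other groups had 0.12 to 0.17), and its arrays correlated least with the rest of their group (mean r 0.969, 0.974 and 0.980 in replicates 1, 2 and 3). Outside that group the lowest was cat2 ambient replicate 3 (mean r 0.982). WT ambient replicate 1 and cat2 ambient replicate 3, the lowest of each kind, were left out together as an alternative. The GAPDH control, whose 3' minus 5' signal grows with RNA damage, read 2.09 ± 0.31 (SD, n = 3) in WT at high CO2 and 2.12 ± 0.61 at ambient CO2, 1.76 ± 0.09 and 1.60 ± 0.11 in cat2, and 1.83 ± 0.07 and 1.49 ± 0.15 in GO5. It did not move with the step in 1 direction, and its part in the results was not tested. Of the leaf markers 1 of 6 was measured, the Rubisco activase gene RCA, at 12.9 in WT at high CO2. Of the root markers 2 of 6 were measured. EXPA7, a root hair expansin, stood at 2.78 in WT at high CO2, near the background, and PYK10, a beta-glucosidase abundant in roots, at 11.1. No marker of epidermis, vascular tissue or shoot meristem was measured among the named probe sets, and the 1 measured guard cell marker, AT1G22690, is itself a member.

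The members' median signal separated the ambient arrays from all others. In WT the member median was 7.59, 7.43 and 6.87 in replicates 1, 2 and 3 at 0 h, 6.40, 6.80 and 7.26 at high CO2, and 5.06, 5.14 and 5.81 at ambient CO2. In cat2 it was 7.43, 7.77 and 7.04 at 0 h, 6.81, 7.10 and 7.29 at high CO2, and 4.77, 4.81 and 5.72 at ambient CO2. In GO5 it was 7.58, 7.78 and 6.90 at 0 h, 6.97, 6.86 and 7.17 at high CO2, and 4.99, 4.88 and 5.63 at ambient CO2. All 9 ambient arrays thus lay below all 18 others. The rule asked for lower ambient than high CO2 means in each genotype, so that part of the separation follows from the choice. In RNA from whole rosettes, fewer cells of a type and less RNA per cell cannot be told apart, and this holds for every value below.

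**Figure D1:**
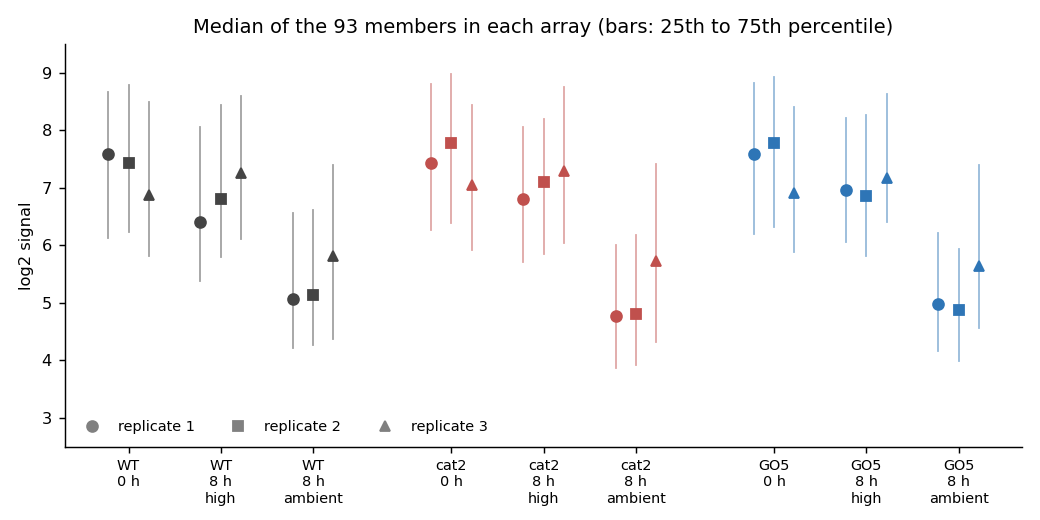
Median log2 signal of the 93 members in each of the 27 arrays (vertical axis), grouped by genotype and condition (horizontal axis). Bars span the 25th to the 75th percentile of the members, and shapes give the replicate number. Medians at ambient CO2 ran from 4.77 to 5.81 and those of all other arrays from 6.40 to 7.78.

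The plot of member medians by array also shows replicate 3 below replicates 1 and 2 at 0 h and above them at 8 h, in every genotype. The median step was -1.32 in WT (2.49-fold lower, range -2.98 to -1.01), -1.78 in cat2 (3.43-fold lower, -3.39 to -1.01) and -1.69 in GO5 (3.23-fold lower, -3.56 to -1.01). The median over all probe sets was 0.00, -0.05 and -0.04, and the median standard error of a member's step was 0.36. Without these 2 arrays, the median step of the members was -1.25 in WT and -2.03 in cat2, and 72 probe sets met the rule, 62 of them members. A step of -1 or lower in the single genotype was met by 1.23%, 1.36% and 1.65% of all probe sets. All 3 ambient arrays lay below all 3 high CO2 arrays in 77 members in WT (6.97% of all probe sets), 87 in cat2 (20.9%) and 86 in GO5 (21.4%), and in 71 members in all genotypes at once (2.6%). By limma with Benjamini-Hochberg adjustment the step passed as lower in 51 members in WT (1.99% of all probe sets), 74 in cat2 (6.11%) and 76 in GO5 (9.99%). It passed as lower in every genotype in 49 members (0.862% of all probe sets). The rule used these contrasts, so nothing is read from the counts.

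The named members include 4 transcription factors, with 1 of them, BZIP61, at the 5th largest mean step of the 93 and the others at ranks 34, 49 and 78. BZIP61, a group E basic leucine zipper factor, read 7.65, 7.53 and 5.99 at 0 h, 6.33, 6.61 and 7.33 at high CO2 and 4.74, 5.08 and 5.28 at ambient CO2 in WT, always in the order of replicates 1, 2 and 3. In cat2 BZIP61 read 7.64, 8.08 and 6.02 at 0 h, 7.29, 7.32 and 7.58 at high CO2 and 3.92, 4.09 and 5.38 at ambient CO2. In GO5 BZIP61 read 7.85, 7.93 and 6.04 at 0 h, 7.34, 6.71 and 7.06 at high CO2 and 4.36, 3.59 and 5.28 at ambient CO2. The ambient arrays did not overlap the high CO2 arrays in any genotype, and replicate 3 was the lowest array at 0 h and the highest at ambient CO2 in all genotypes. The BZIP61 step was -1.72, -2.93 and -2.62 in WT, cat2 and GO5 (SE 0.56), which is 3.30, 7.62 and 6.16-fold lower. BZIP34, a second factor of that group, had steps of -1.15, -2.06 and -1.48 (SE 0.41), and at ambient CO2 it came under 3 log2 units, near the background, in at least 1 genotype. HAT2, an auxin-inducible homeodomain-leucine zipper factor, had steps of -1.45, -2.14 and -1.65 (SE 0.50). AT5G61590 encodes DEWAX, an AP2/ERF repressor of wax synthesis, and had steps of -1.20, -1.35 and -1.23 (SE 0.44). HAT2 and BZIP34 had a larger step in cat2 than in WT or GO5, as BZIP61 did, and the 3 steps of AT5G61590 lay within its standard error of each other.

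A pair of members encode BIG GRAIN 1-like proteins, named for a rice membrane protein with a role in auxin transport. AT5G12050, which had the largest mean step of the named members, read 9.61, 9.46 and 6.87 at 0 h, 6.59, 7.58 and 8.49 at high CO2 and 5.12, 5.16 and 6.17 at ambient CO2 in WT. In cat2 AT5G12050 read 9.20, 9.94 and 7.15 at 0 h, 7.81, 7.55 and 8.45 at high CO2 and 4.51, 4.63 and 5.11 at ambient CO2. In GO5 AT5G12050 read 9.51, 9.87 and 6.70 at 0 h, 7.74, 7.35 and 8.49 at high CO2 and 5.00, 5.05 and 5.40 at ambient CO2. Ambient and high CO2 arrays did not overlap in any genotype. Replicate 3 stood over 2 log2 units below the other replicates at 0 h, and it was the highest array at both 8 h conditions in every genotype. The step of AT5G12050 was -2.07, -3.18 and -2.71 (SE 0.77), or 4.21, 9.09 and 6.54-fold lower in WT, cat2 and GO5. AT3G42800 had steps of -1.14, -1.78 and -1.50 (SE 0.20).

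Named members with roles in the cell wall or outside the cell are described next, sorted by known role and not tested as a theme. AT3G07010, a pectate lyase-like protein of a family that cuts pectin, read 7.01, 6.64 and 6.86 at 0 h, 7.18, 7.31 and 7.56 at high CO2 and 6.41, 6.38 and 5.86 at ambient CO2 in WT. In cat2 AT3G07010 read 6.77, 7.36 and 6.70 at 0 h, 8.00, 7.84 and 7.85 at high CO2 and 5.38, 5.60 and 5.74 at ambient CO2. In GO5 AT3G07010 read 7.01, 7.24 and 6.71 at 0 h, 7.65, 7.40 and 7.17 at high CO2 and 5.56, 5.32 and 5.64 at ambient CO2. All ambient arrays lay below all arrays of the other conditions in each genotype, and the high CO2 arrays lay above the 0 h arrays without overlap in WT and cat2. The step of AT3G07010 was -1.13, -2.32 and -1.90 (SE 0.18), or 2.20, 5.00 and 3.73-fold lower, the smallest in WT. AT5G66590, of the CAP superfamily of secreted proteins, read 7.41, 7.22 and 6.48 at 0 h, 6.46, 7.65 and 8.19 at high CO2 and 5.92, 5.24 and 6.71 at ambient CO2 in WT. In cat2 AT5G66590 read 7.33, 7.70 and 6.46 at 0 h, 7.69, 7.13 and 8.09 at high CO2 and 4.57, 4.88 and 5.93 at ambient CO2. In GO5 AT5G66590 read 7.28, 7.49 and 6.19 at 0 h, 6.94, 6.61 and 7.60 at high CO2 and 4.75, 4.55 and 5.80 at ambient CO2. In WT its ambient replicate 3 exceeded its high CO2 replicate 1, so those groups overlapped, while they stood apart in cat2 and GO5. The step of AT5G66590 was -1.48, -2.51 and -2.02 (SE 0.50). TBL45, of a family that acetylates wall polysaccharides, had steps of -1.48, -1.95 and -1.72 (SE 0.18). AT4G11290, a class III peroxidase of the secreted plant family, had steps of -1.13, -1.21 and -1.57 (SE 0.37). AT1G22690, a GASA-type gibberellin-regulated peptide whose promoter is used to mark guard cells, had steps of -1.07, -1.37 and -1.69 (SE 0.40). AT5G48490, a lipid transfer protein like DIR1 of systemic resistance, had steps of -1.13, -1.35 and -1.39 with an SE of 1.02, the largest of the named members, and its ambient and high CO2 arrays overlapped in every genotype.

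Members with roles in lipids were fewer. AT1G33811 encodes a GDSL-type lipase and had steps of -1.44, -1.74 and -1.92 (SE 0.46). AT4G19380 encodes a long-chain fatty alcohol oxidase and had steps of -1.29, -1.43 and -1.48 (SE 0.23). AT4G19380 and AT4G19430, a member for which no role is given here, are separated by 4 protein-coding genes on chromosome 4, and no other named members were that close. The named members lay on every chromosome, with 9, 3, 6, 7 and 12 on chromosomes 1 to 5.

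Other members encode phosphatases, kinases and enzymes of turnover, again sorted by known role. AT1G04040, an acid phosphatase-like protein of the HAD superfamily, read 10.54, 10.12 and 10.69 at 0 h, 9.32, 9.66 and 9.72 at high CO2 and 7.28, 7.90 and 8.34 at ambient CO2 in WT. In cat2 AT1G04040 read 10.20, 10.63 and 10.77 at 0 h, 9.55, 9.56 and 9.90 at high CO2 and 7.62, 7.48 and 7.88 at ambient CO2. In GO5 AT1G04040 read 10.45, 10.49 and 10.66 at 0 h, 9.45, 9.38 and 9.62 at high CO2 and 7.17, 7.10 and 7.40 at ambient CO2. The 3 conditions did not overlap in any genotype, with 0 h highest and ambient CO2 lowest. The step of AT1G04040 was -1.73, -2.01 and -2.26 (SE 0.21), or 3.31, 4.02 and 4.79-fold lower in WT, cat2 and GO5. AT1G66940, a kinase-related protein, read 8.55, 8.83 and 8.50 at 0 h, 8.55, 8.44 and 8.85 at high CO2 and 6.56, 7.03 and 6.71 at ambient CO2 in WT. In cat2 AT1G66940 read 8.81, 8.94 and 8.42 at 0 h, 8.29, 8.55 and 8.88 at high CO2 and 5.99, 6.20 and 6.75 at ambient CO2. In GO5 AT1G66940 read 8.80, 8.73 and 8.44 at 0 h, 8.50, 8.63 and 8.77 at high CO2 and 6.40, 6.88 and 6.95 at ambient CO2. Here the 0 h and high CO2 arrays overlapped in every genotype, and all ambient arrays lay more than 1 log2 unit below both. The step of AT1G66940 was -1.85, -2.26 and -1.89 (SE 0.20), or 3.60, 4.80 and 3.71-fold lower. AT1G25230, a purple acid phosphatase, had steps of -1.17, -1.88 and -1.75 (SE 0.30). AT3G01490, a Raf-like protein kinase, had steps of -1.25, -1.90 and -1.76 (SE 0.22). Both had their smallest step in WT. AT4G34220, a leucine-rich repeat kinase, had steps of -1.06, -1.37 and -1.01 (SE 0.46). AT1G49200, of a RING-type ubiquitin ligase family, had steps of -1.10, -1.01 and -1.14 (SE 0.35). Its steps, near -1 in all genotypes, were among the smallest of the module. ALN, allantoinase of purine breakdown, had steps of -1.12, -1.88 and -1.48 (SE 0.46). AT1G14210, of the RNase T2 family, had steps of -1.08, -1.09 and -1.34 (SE 0.19).

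**Figure D2:**
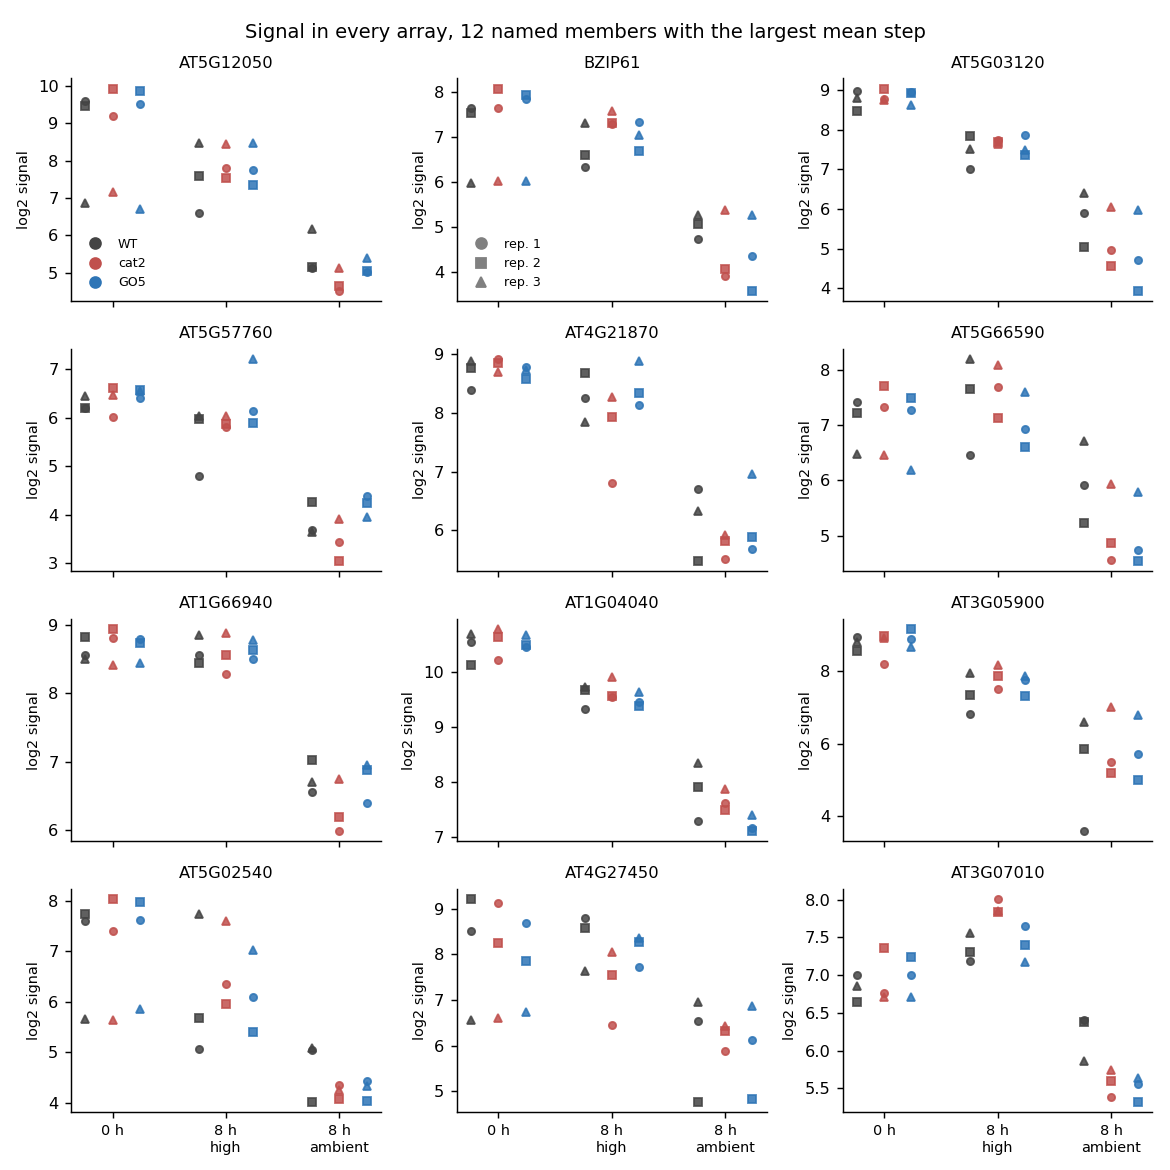
Log2 signal (vertical axes, scaled per panel) at 0 h, 8 h high CO2 and 8 h ambient CO2 (horizontal axes) of the 12 named members with the largest mean step. Each point is 1 array, colours are genotypes and shapes are replicate numbers. Within a genotype the ambient arrays lie below the high CO2 arrays, except for overlaps in WT in AT5G66590 and AT5G02540.

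The plot of these 12 genes by array shows that the members do not share 1 pattern at 0 h. Some, such as AT1G04040 and AT5G03120, started highest, and AT3G07010 started below its level at high CO2. A further 4 of the 12 belong to families of mixed or uncertain role. AT4G21870, a small heat shock protein-like chaperone, read 8.39, 8.76 and 8.88 at 0 h, 8.25, 8.68 and 7.85 at high CO2 and 6.70, 5.47 and 6.32 at ambient CO2 in WT. In cat2 AT4G21870 read 8.92, 8.85 and 8.70 at 0 h, 6.81, 7.93 and 8.28 at high CO2 and 5.50, 5.81 and 5.92 at ambient CO2. In GO5 AT4G21870 read 8.78, 8.57 and 8.73 at 0 h, 8.13, 8.34 and 8.89 at high CO2 and 5.69, 5.89 and 6.96 at ambient CO2. Ambient and high CO2 arrays stayed apart in every genotype. The step of AT4G21870 was -2.10, -1.93 and -2.27 (SE 0.35), with all 3 values within the standard error of each other. AT4G27450, an aluminium-induced-like protein, read 8.50, 9.20 and 6.56 at 0 h, 8.79, 8.57 and 7.63 at high CO2 and 6.54, 4.77 and 6.95 at ambient CO2 in WT. In cat2 AT4G27450 read 9.13, 8.25 and 6.61 at 0 h, 6.44, 7.54 and 8.05 at high CO2 and 5.88, 6.32 and 6.43 at ambient CO2. In GO5 AT4G27450 read 8.69, 7.86 and 6.74 at 0 h, 7.72, 8.26 and 8.36 at high CO2 and 6.12, 4.84 and 6.87 at ambient CO2. The 8 h groups stayed apart, by 0.02 or less in cat2, and the low replicate 3 at 0 h fell below the highest ambient array in WT and GO5. The step of AT4G27450 was -2.24, -1.14 and -2.17 (SE 0.71), the smallest in cat2.

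AT3G05900, a neurofilament-related protein, read 8.94, 8.54 and 8.80 at 0 h, 6.82, 7.35 and 7.93 at high CO2 and 3.59, 5.85 and 6.59 at ambient CO2 in WT. In cat2 AT3G05900 read 8.20, 8.96 and 8.90 at 0 h, 7.50, 7.86 and 8.15 at high CO2 and 5.50, 5.19 and 7.01 at ambient CO2. In GO5 AT3G05900 read 8.88, 9.15 and 8.67 at 0 h, 7.74, 7.31 and 7.87 at high CO2 and 5.71, 5.00 and 6.79 at ambient CO2. The 3 conditions did not overlap within a genotype, and the lowest of the 27 values came from WT ambient replicate 1, the array that correlated least with its group. The step of AT3G05900 was -2.02, -1.93 and -1.81 (SE 0.56), and without that array it was -1.14 in WT. AT5G02540, a short-chain dehydrogenase of the Rossmann-fold type, read 7.60, 7.74 and 5.66 at 0 h, 5.07, 5.67 and 7.74 at high CO2 and 5.05, 4.03 and 5.08 at ambient CO2 in WT. In cat2 AT5G02540 read 7.39, 8.02 and 5.65 at 0 h, 6.36, 5.95 and 7.60 at high CO2 and 4.35, 4.07 and 4.26 at ambient CO2. In GO5 AT5G02540 read 7.61, 7.97 and 5.86 at 0 h, 6.10, 5.41 and 7.02 at high CO2 and 4.44, 4.05 and 4.35 at ambient CO2. Replicate 3 was the lowest array at 0 h and the highest at high CO2 in every genotype, and the WT groups at 8 h overlapped. The step of AT5G02540 was -1.44, -2.41 and -1.90 (SE 0.71). AT2G46250, a myosin heavy chain-like protein, had steps of -1.38, -1.50 and -1.67 (SE 0.30). AT3G12710, of a DNA glycosylase family, had steps of -1.54, -2.08 and -1.68 (SE 0.24). AT5G22580, with a stress-responsive A/B barrel domain, had steps of -1.16, -1.54 and -1.76 (SE 0.20), the largest in GO5. AT1G22330, an RNA-binding protein with an RNA recognition motif, had steps of -1.14, -1.81 and -1.68 (SE 0.38). It was the only named member whose gene had another probe set, and that probe set missed the rule in WT, with steps of -0.998, -2.05 and -1.90.

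For the remaining named members no role is given. AT5G03120 read 8.97, 8.48 and 8.81 at 0 h, 7.01, 7.84 and 7.50 at high CO2 and 5.90, 5.03 and 6.40 at ambient CO2 in WT. In cat2 AT5G03120 read 8.78, 9.04 and 8.74 at 0 h, 7.73, 7.70 and 7.64 at high CO2 and 4.95, 4.56 and 6.05 at ambient CO2. In GO5 AT5G03120 read 8.94, 8.93 and 8.61 at 0 h, 7.87, 7.36 and 7.48 at high CO2 and 4.72, 3.94 and 5.98 at ambient CO2. The conditions formed 3 separate levels in each genotype, from 0 h down to ambient CO2, and replicate 3 was the highest ambient array throughout. The step of AT5G03120 was -1.67, -2.50 and -2.69 (SE 0.40), or 3.19, 5.65 and 6.46-fold lower in WT, cat2 and GO5. AT5G57760 read 6.21, 6.20 and 6.46 at 0 h, 4.79, 5.98 and 6.03 at high CO2 and 3.69, 4.27 and 3.64 at ambient CO2 in WT. In cat2 AT5G57760 read 6.01, 6.62 and 6.47 at 0 h, 5.81, 5.87 and 6.04 at high CO2 and 3.43, 3.04 and 3.92 at ambient CO2. In GO5 AT5G57760 read 6.40, 6.58 and 6.56 at 0 h, 6.14, 5.89 and 7.22 at high CO2 and 4.38, 4.23 and 3.95 at ambient CO2. Its 8 h groups stayed apart in every genotype, and WT high CO2 replicate 1 was the lowest array of its condition. The step of AT5G57760 was -1.73, -2.44 and -2.22 (SE 0.31). AT4G19430 had steps of -1.56, -1.18 and -2.61 (SE 0.49), and it came under 3 log2 units, near the background, at ambient CO2 in every genotype. AT5G16030 had steps of -1.53, -1.78 and -1.32 (SE 0.59), with overlap of its 8 h groups in every genotype. AT5G62280 had steps of -1.08, -1.92 and -1.53 (SE 0.73). Both of these had wide standard errors for their steps. AT1G10990 had steps of -1.45, -1.51 and -1.30 (SE 0.22). AT5G20790 had steps of -1.28, -1.50 and -1.23 (SE 0.59).

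Unnamed members spanned the same sizes, with median steps of -1.32, -1.73 and -1.72 against -1.38, -1.88 and -1.69 for the 37 named ones in WT, cat2 and GO5. Probe set 265066_at had the largest mean step. In WT it read 10.53, 10.35 and 11.07 at 0 h, 8.76, 9.13 and 9.10 at high CO2 and 5.96, 5.85 and 6.70 at ambient CO2. In cat2 265066_at read 10.38, 10.72 and 11.19 at 0 h, 8.90, 9.43 and 9.39 at high CO2 and 5.06, 5.75 and 6.74 at ambient CO2. In GO5 265066_at read 10.77, 10.71 and 11.11 at 0 h, 9.26, 9.10 and 9.32 at high CO2 and 5.30, 4.89 and 6.81 at ambient CO2. Its 3 conditions formed separate levels in every genotype, and its step was -2.83, -3.39 and -3.56. Probe set 266693_at was the most uneven, with steps of -1.31, -1.07 and -3.47. In GO5 it read 5.55, 3.98 and 4.52 at 0 h, 7.19, 7.41 and 7.28 at high CO2 and 3.68, 3.71 and 4.09 at ambient CO2, with ambient and high CO2 apart. In WT it read 4.92, 6.49 and 4.87 at 0 h, 5.52, 6.41 and 3.70 at high CO2 and 3.66, 3.77 and 4.26 at ambient CO2, and in cat2 6.60, 4.28 and 4.72 at 0 h, 3.75, 6.69 and 4.44 at high CO2 and 4.24, 4.03 and 3.40 at ambient CO2. In both the 8 h groups overlapped.

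**Figure D3:**
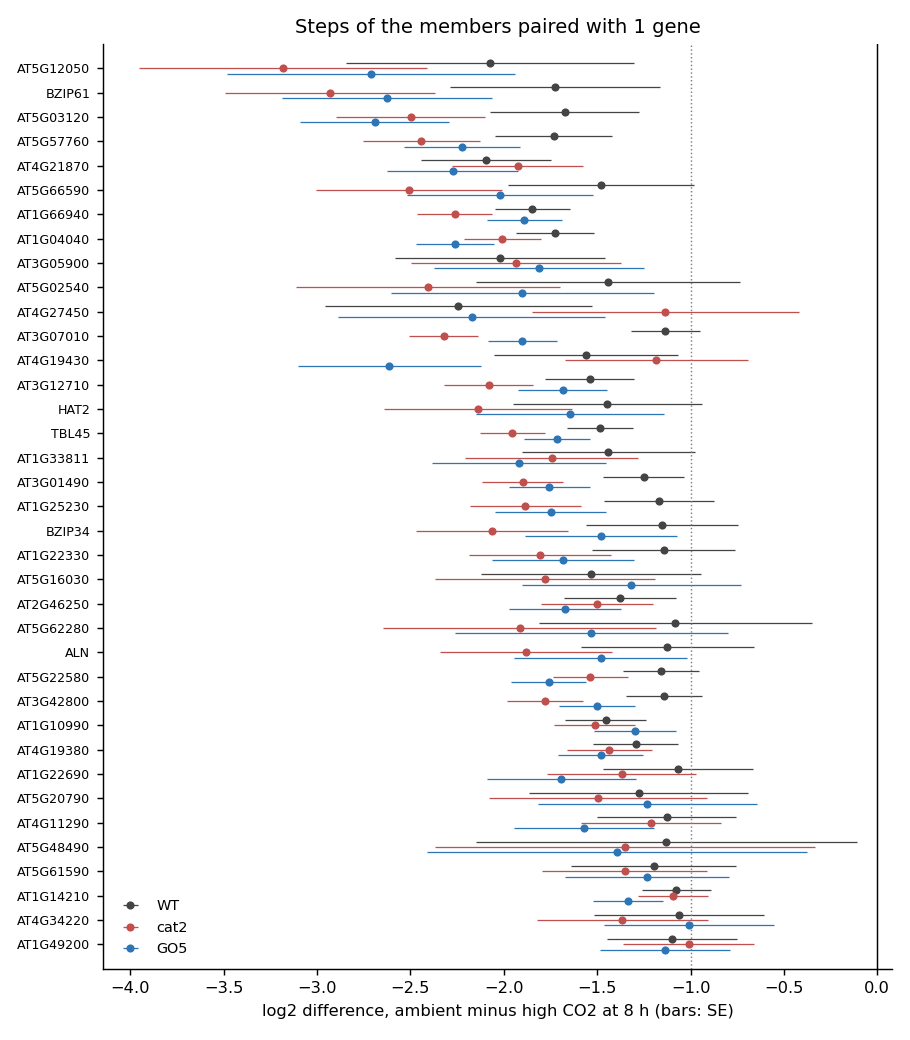
Step (ambient minus high CO2 at 8 h, log2, horizontal axis) of the 37 members paired with 1 gene (vertical axis, by mean step) in WT, cat2 and GO5. Bars are the standard error from the limma fit and the dotted line marks the rule's limit of -1. WT points lie to the right of both lines' points in 28 of the 37.

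Among themselves the members differed in size more than in direction, which the rule fixed. The step was larger in cat2 than in WT in 74 of 93 members, larger in GO5 than in WT in 75, and larger in GO5 than in cat2 in 38. In the plot of steps of the named members, 28 of 37 had a larger step in both lines than in WT. These comparisons share the WT arrays, and the rule used all of them. Over all probe sets the median step was 0.00 in WT, -0.05 in cat2 and -0.04 in GO5. The share of all probe sets with a larger step in a line than in WT is not given here. A step of -2 or lower in all genotypes was found in 4 members. At ambient CO2 the cat2 minus WT difference had a median of -0.26 over the members (range -0.83 to 0.56) and GO5 minus WT one of -0.15 (range -0.92 to 0.84), within the limits set by the rule. AT5G66590 came closest to that limit among all members, at -0.92 for GO5 minus WT. At high CO2 the medians had the other sign, 0.20 for cat2 minus WT and 0.12 for GO5 minus WT. All of these are values on which the members were chosen.

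In group means, the members at high CO2 were spread around their 0 h level. By replicate number, the member median at high CO2 was below that at 0 h in replicates 1 and 2 and above it in replicate 3, in every genotype. The group means average over this. The rule did not use the 0 h arrays, but it did use the 8 h groups compared with them here, so these values are given with no test. The median high CO2 minus 0 h difference was -0.29 in WT (range -1.93 to 1.72), -0.24 in cat2 (-2.11 to 1.65) and -0.18 in GO5 (-2.12 to 2.61). It was below 0 in all genotypes in 49 members, above 0 in all in 26 and of mixed sign in 18. In 61 members it stayed within 1 of 0 in every genotype. Ambient minus 0 h had medians of -1.78, -2.04 and -1.97 in WT, cat2 and GO5. It was below 0 in all genotypes in 89 members and -1 or lower in all in 63. The module therefore holds members that were also lower at high CO2 than at 0 h, at least 1 log2 unit in every genotype in 9, and members that were higher, at least 1 log2 unit in every genotype in 2. The 0 h and 8 h samples also differ in the hour of harvest, and its part was not tested.

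**Figure D4:**
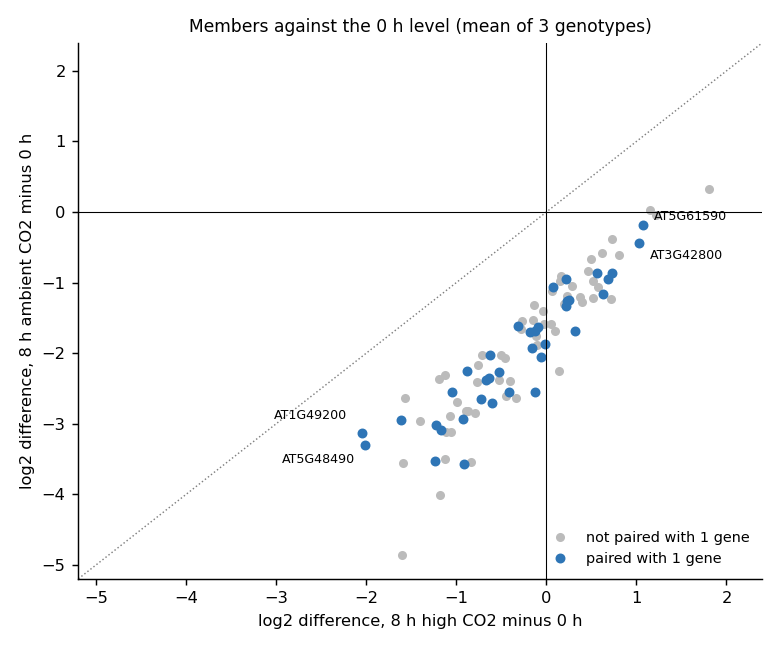
Difference from 0 h at 8 h high CO2 (horizontal axis) and at 8 h ambient CO2 (vertical axis), both log2 and averaged over the genotypes, for each of the 93 members. The dotted line marks equal values, and all points lie below it as the rule requires. Named members range from AT1G49200, at -2.05 after 8 h at high CO2, to AT5G61590, at 1.08.

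The plot of members against 0 h sets apart genes with unlike courses. AT1G49200 differed from 0 h by -1.92, -2.11 and -2.12 at high CO2 and by -3.02, -3.12 and -3.26 at ambient CO2 in WT, cat2 and GO5. AT5G48490 differed from 0 h by -1.93, -2.01 and -2.09 at high CO2 and by -3.06, -3.36 and -3.48 at ambient CO2 in WT, cat2 and GO5. In both the mean at high CO2 already lay about 2 log2 units below 0 h. For AT5G48490 this came from replicates 1 and 2, since replicate 3 went from 9.25 to 9.03 in WT, from 9.54 to 9.21 in cat2 and from 9.34 to 8.75 in GO5. Opposite courses were seen in the next pair. AT3G42800 differed from 0 h by 0.95, 1.11 and 1.03 at high CO2 and by -0.19, -0.67 and -0.47 at ambient CO2 in WT, cat2 and GO5. AT5G61590 differed from 0 h by 1.01, 0.81 and 1.40 at high CO2 and by -0.18, -0.54 and 0.17 at ambient CO2 in WT, cat2 and GO5. In group means these stood above the 0 h level at high CO2 and differed from it less at ambient CO2. For AT5G61590 the means average over opposite changes. In every genotype it was lower at ambient CO2 than at 0 h in replicates 1 and 2 and higher in replicate 3. At high CO2 its cat2 replicate 1, at 8.82, did not exceed its 0 h value of 8.85. For AT3G42800 in cat2, all ambient arrays (3.00, 3.03 and 3.32) lay below all 0 h arrays (3.76, 4.14 and 3.46).

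The genotypes were also compared at 0 h, before any transfer, on arrays that the rule did not use. The standard errors of these tests come from the variance pooled over all 27 arrays. By limma with Benjamini-Hochberg adjustment 0 of 93 members passed in cat2 minus WT, in GO5 minus WT and in GO5 minus cat2, where 0.00879% of all probe sets passed in each. At an unadjusted p under 0.05 there were also 0 members in each, against 0.985%, 1.32% and 1.11% of all probe sets. The smallest unadjusted p of a member was 0.138, 0.101 and 0.262. The median differences were 0.10 (range -0.69 to 0.50), 0.05 (-0.84 to 0.39) and -0.03 (-0.52 to 0.23), each with a median standard error of 0.36. The group means at 0 h lay within 1 log2 unit of each other in all 93 members. The standard errors ran from 0.12 to 1.02, so the size of difference that could be missed varied between members, and the missing calls do not show equal levels. This error includes the spread between replicate numbers. In a fit of the 0 h arrays alone with the replicate number as a block, added after seeing the data, the median standard error was 0.13, 0 members passed the adjusted test, and 5, 7 and 6 had an unadjusted p under 0.05, where 3.53%, 6.15% and 4.37% of all probe sets did. AT4G19430 had the lowest difference in cat2 minus WT, at -0.69, and in GO5 minus WT, at -0.84. For the 5 leading named members the 0 h differences were small against their errors from the fit without the block. Those errors include the spread between replicate numbers, and the errors of these members with the block are not given here. AT5G12050 differed by 0.12 and 0.05 in cat2 and GO5 against WT (SE 0.77), BZIP61 by 0.19 and 0.22 (SE 0.56), AT5G03120 by 0.10 and 0.07 (SE 0.40), AT5G57760 by 0.08 and 0.22 (SE 0.31) and AT4G21870 by 0.15 and 0.02 (SE 0.35).

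The second test compared the mean of the 6 groups at 8 h with the mean of the 3 groups at 0 h. If all groups had equal variances and arrays were independent, its errors would be uncorrelated with those of the step, and neither holds fully here. The test also contains part of the step by construction. Members therefore had to tend downwards in it and its count is no separate evidence. By limma with Benjamini-Hochberg adjustment 70 members passed as lower (20.1% of all probe sets) and 4 as higher (18.5%). The members' median was -0.998, and the medians of its parts were -0.79 for the share that comes from the step and -0.16 for the high CO2 minus 0 h difference. The lowest differences among the named members called, given as a description, were -2.66 in AT5G48490 (SE 0.51), -2.59 in AT1G49200 (SE 0.17), -2.39 in AT5G03120 (SE 0.20), -2.28 in AT5G20790 (SE 0.29) and -2.25 in AT5G12050 (SE 0.39). In the first 4 of these the high CO2 minus 0 h difference, at -2.01, -2.05, -1.24 and -1.62, was larger in size than the share from the step, and in AT5G12050, at -0.92 against -1.33, it was not. The 1 named member called higher was AT3G42800 at 0.29 (SE 0.10, adjusted p 0.026), a call lost without replicate 3 of any of the 0 h groups, where the difference was 0.20 to 0.27.

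Members varied more between replicates than other genes did. The median SD within a group was 0.24 to 0.43 over the members and 0.12 to 0.24 over all probe sets. At 0 h the member median was 0.38, against 0.14 for all probe sets and 0.15 for the 7105 others whose level lay in the members' interquartile range of 6.09 to 8.70. Members were also brighter at 0 h, with a median of 7.22, the 75th percentile of all probe sets, whose median was 5.42. The rule asks for a 2-fold fall, which a probe set near the background cannot show, so brighter members were favoured by the choice. The spread followed the replicate number. Replicate 3 was the lowest array in all 3 groups at 0 h in 44 members, 47.3% of them against 16% of all probe sets. It was the highest in all 3 groups at high CO2 in 42 members, 45.2% against 10.1%, and in all 3 groups at ambient CO2 in 45, 48.4% against 6.72%. In 30 members, 32.3% against 2.36%, it was lowest at 0 h and highest at ambient CO2 in every genotype. The rule used group means only, so the order of replicates within a group is not set by it, but a wide spread between arrays makes a large step more likely, and the shares are given as a description. The labels do not say what a replicate number marks.

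**Figure D5:**
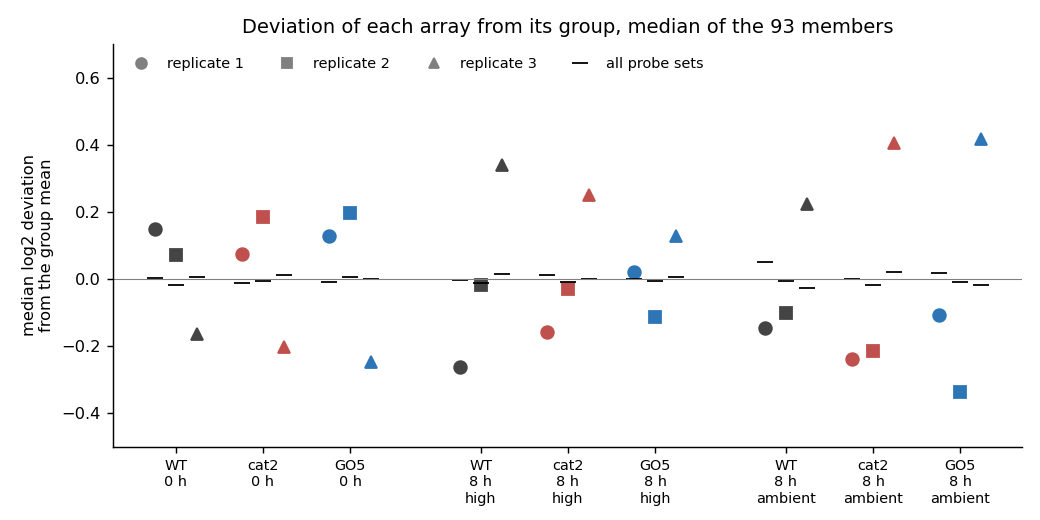
Median over the 93 members of each array's log2 deviation from its group mean (vertical axis), by group (horizontal axis). Shapes are replicate numbers, colours are genotypes, and dashes give the same median over all probe sets. Replicate 3 lies below 0 in the 3 groups at 0 h and above 0 in the 6 groups at 8 h.

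Within a replicate number, on the arrays the rule used, the members' median steps in replicates 1, 2 and 3 were -1.15, -1.49 and -1.33 in WT, -1.93, -1.99 and -1.48 in cat2, and -1.75, -1.82 and -1.45 in GO5. The plot of array deviations shows replicate 3 high in both 8 h conditions, the groups between which the step is taken. The rule was also applied with 1 replicate number left aside, and the step of the probe sets so chosen was read in that number. The number left aside had no part in choosing them. Leaving replicate 1 aside gave 117 probe sets, 80 of them members, with median steps in replicate 1 of -0.93, -1.82 and -1.72 in WT, cat2 and GO5. Leaving replicate 2 aside gave 72, with 59 members, and steps of -1.35, -2.08 and -1.80. Leaving replicate 3 aside gave 83, with 65 members, and steps of -1.08, -1.14 and -1.15. The step in the arrays left aside was below 0 in every genotype in 109 of 117, 72 of 72 and 81 of 83 probe sets, where 20.6%, 18.4% and 29.5% of all probe sets were. It was -1 or lower in every genotype in 31.6%, 65.3% and 42.2% of them, against 0.334%, 0.615% and 0.418%. These sets overlap the module without being it, each reading rests on 1 array per group, and probe sets are not replicates. Deviations of arrays of equal number also correlated between some groups at 8 h, by 0.43, 0.48 and 0.55 between cat2 and GO5 at high CO2. The 3 genotypes are thus not independent readings, and the shares are given as a description.

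The edge of the module is not a gap. Just inside the limit lay 247189_at, at -1.01 in WT, AT4G34220, at -1.01 in GO5, and AT1G49200, at -1.01 in cat2. Just outside lay 251977_at, at -0.999 in WT, the second probe set of AT1G22330, at -0.998 in WT, and 252178_at, at -0.991 in WT. A further 6 probe sets met the step limit and were left out by the limit on genotype differences alone, and 2 of them were paired with 1 gene. At ambient CO2 4 members came under 3 log2 units in some genotype and 1 in every genotype, and a fall into this range, which holds 21.2% of all array values between 2 and 3, understates the change.

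Other genes of growth and wall loosening moved in both directions. Of 27 expansin and xyloglucan endotransglucosylase genes listed, 12 were measured, among them EXPA8 and EXLA1, which were left out of the module by name. By limma, 2 of the 12 passed as higher and 1 as lower in WT, 2 and 5 in cat2, and 3 and 4 in GO5, against 2.78% higher and 1.99% lower over all probe sets in WT, 5.16% and 6.11% in cat2, and 7.69% and 9.99% in GO5. The 1 lower call in WT was EXPA8, and EXPA8 and EXLA1 were both among the lower calls in cat2 and in GO5. The median steps of the 12 were 0.14, -0.21 and -0.15. XTH19, a xyloglucan endotransglucosylase, went the other way from the module, with steps of 2.96, 3.46 and 2.67, and so did EXPA4, an expansin, at 1.44, 1.15 and 1.65. XTH16 had steps of -0.85, -1.23 and -1.94, past the test in cat2 and GO5 and not in WT (adjusted p 0.0713, difference between genotypes not tested). EXLA2, an expansin-like gene, had steps of 0.03, -0.93 and -0.70. Of 15 CYP71B cytochrome P450 genes, 10 were measured, and 1, 1 and 2 passed as lower in WT, cat2 and GO5, where 1.99%, 6.11% and 9.99% of all probe sets did. CYP71B22 was among them in all, at -2.59, -2.03 and -1.50, and met the step limit but not the limit on genotype differences. CYP71B34 passed in GO5, at -0.55. Of 3 measured genes each of starch synthesis and sugar response, of glucosinolate synthesis and of light harvesting, 0 passed in any genotype, and of 3 of nitrate response 2 passed as higher in GO5. Few genes of these lists were measured because many probe sets have no paired gene here, so the lists describe only the genes named.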

How the data were processed

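Signals of 27 arrays were analysed as deposited. Values are log2 signals made and deposited by the authors. The submitters' processing notes name affy, R 2.15.0 and both GCRMA and RMA, and the files do not tell which was applied. The number of arrays limits the precision. Per the labels, groups were 3 genotypes in 3 conditions with 3 biological replicates, each of 2 rosettes. All 64 control probe sets were removed, leaving 22746, of which 13513 were paired with 1 gene, 503 with several and 8730 with none.

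A linear model with a mean for each of the 9 groups was fitted to the 27 arrays (limma 3.58.1, R 4.3.3), with default empirical Bayes variances, 2-sided tests and Benjamini-Hochberg adjustment over all 22746 probe sets, with calls at an adjusted p under 0.05. The fit was tested on simulated data. For GO5 minus cat2 at 0 h, 79 of 100 planted differences of 1 log2 unit and 97 of 100 of 2 were recovered, with 6 unchanged probe sets called. In the contrast of 8 h with 0 h, 97 of 100 and 100 of 100 were recovered, with 10 unchanged ones called. The differences were planted in probe sets drawn from the whole array, with noise independent between arrays. Members had a median SD at 0 h of 0.38, against 0.14 over all probe sets, so these shares do not give the recovery among members. A standard error comes from the variance pooled over groups and is thus the same for each genotype.

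Members and gene lists were chosen with earlier results of these data known. Named genes are members paired with 1 gene. Values by array are given for the 12 with the largest mean step, and beside them the 5 largest called changes in each direction, the 3 probe sets nearest to the limit on each side and the listed genes. The 2 unnamed members with values by array, those with the largest mean step and with the widest range of steps, were chosen after their values were seen, as were the listed genes picked for their size.

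Replicate numbers come from the labels, which do not say what a number marks. Over all probe sets, deviations from the group means correlated for equal numbers by 0.01, 0.10 and 0.80 between WT and cat2 at 0 h, by 0.13, -0.00 and 0.79 between WT and GO5, and by 0.69, 0.60 and 0.78 between cat2 and GO5. Among the 0 h pairs all 3 correlations passed 0.1 between cat2 and GO5, and numbers were not taken to pair the other 0 h groups. Over all 36 pairs of groups this held for 6, of which 5 were between groups at 8 h and 0 between 0 h and 8 h. Alternatives changed scaling, the filter on dim probe sets, the variance setting, the arrays used, the replicate block and the limits of the rule. A planned search for promoter motifs was not run because no promoter sequences were used here.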

Additional observations from a re-analysis of the deposited data

How the results depend on the processing

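The number of probe sets meeting the rule followed its threshold, with 93 at a step of -1, 170 at a threshold of 0.8, which include all 93 members, and 46 at 1.2. Under quantile normalization, median centring, removal of dim probe sets and no limit on genotype differences it was 92, 77, 89 and 99. Leaving out 1 of the 18 arrays at 8 h gave 67 to 118, with at least 66 members kept each time, and 28 members were kept whichever array was left out. Of the 12 genes with values by array, 5 were among these 28, and the others missed the rule without at least 1 array. All 288 steps recomputed for the 12 genes stayed below 0, from -3.39 to -0.65, which is a weaker condition than the rule's limit of -1. The 0 h genotype tests gave 0 members under every alternative run, leaving out 1 array included (0 to 0). The count for 8 h against 0 h ran from 71 to 75 under the alternatives and from 68 to 77 without 1 array. With the replicate number as a block the same 74 members were called, and the 0 h counts were 0, also in the added fit of the 9 arrays at 0 h alone. Without WT ambient replicate 1 and cat2 ambient replicate 3, also an added alternative, 72 probe sets met the rule and the count for 8 h against 0 h was 76. The call of AT3G42800 was lost under median centring, at 0.25, and without replicate 3 of GO5, WT or cat2 at 0 h, at 0.20, 0.27 and 0.24; the cause was not tested. A fit of only the compared arrays does not apply to 8 h against 0 h, which uses all arrays, and the promoter motif search was not run. The members dimmest at ambient CO2 stood near the background, where a fall is cut short.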
